A study of Mus musculus with 6 samples.

Results

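Transcripts of T and B lymphocytes and of the signals that gather them in lymphoid tissue were followed through 6 RNA-seq libraries of inguinal fat. The set was a list of 37 gene symbols, and all 37 had a row among the 17342 named genes. It held 23 T cell genes, 8 B cell genes, 3 genes of lymphoid organisation and homing (Ltb, Cxcr5 and Ccl21a) and 3 genes carried by most leukocytes (Coro1a, Ptprc and Rac2). Only 17 members averaged 1 FPKM or more over the 6 libraries and entered the test, 10 of them T genes and 2 of them B genes. FPKM are fragment counts scaled to transcript length and to the mapped fragments of the library, so levels of different genes can be set side by side.

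The fat came from 8-week-old C57BL/6 mice after cold stimulation. WT animals (3 libraries, numbered 1 to 3) were compared with Rarres2-/- animals (3 libraries, numbered 4 to 6), which lack chemerin, a protein that adipocytes secrete and that attracts leukocytes. The comparison asks how cold-stimulated fat differs without chemerin. All libraries share the cold, and fat kept warm was not analysed here. The sources used here do not give how the allele was made, how long and how cold the stimulus was, or whether each library came from a separate mouse. If libraries do not stand for separate mice, p-values measure only the spread between these libraries.

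T cells recognise antigen through a receptor bound to the CD3 chains and to CD247. The kinases Lck and Zap70 and the scaffold Lat carry its signal. B cells use surface immunoglobulin with the paired chains CD79a and CD79b. In lymph nodes the chemokine CCL21 and its receptor CCR7 draw T cells, CXCL13 and its receptor CXCR5 draw B cells, and lymphotoxin, which contains the product of Ltb, maintains the tissue. Inguinal fat surrounds a lymph node, and fat also holds lymphocytes of its own.

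Rarres2 was at 436, 610 and 505 FPKM in WT and at 0.260, 6.35 and 1.41 FPKM in Rarres2-/-. All Rarres2-/- libraries lay below all WT libraries, as the labels say. The adipocyte gene Adipoq was at 2118 to 2809 FPKM in every library. Depth relative to WT replicate 2, read from the spacing of the lowest values, was 0.484 in WT replicate 1 and 0.699 to 1.01 in the other libraries. Absolute depth is unknown, so no counting interval can be given, and a value of a few hundredths of an FPKM may rest on very few fragments. Endothelial genes summed to 196 FPKM in WT replicate 1 and 125 FPKM in Rarres2-/- replicate 4, against 36.7 to 42.7 FPKM in the other libraries. WT replicate 1 stood apart in other ways too. The small nucleolar RNA gene Snord2 held 62.1% of its summed FPKM, muscle genes summed to 1409 FPKM there (218 to 515 elsewhere), mast cell genes to 8.15 FPKM (72.1 to 152 elsewhere) and fibroblast genes to 1255 FPKM (2385 to 5162 elsewhere).

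Promoters are shown for 5 members, because the B members, and most T members, shared a high library, and 1 example each of a B antigen receptor chain (Cd79a), a mature B cell gene (Fcer2a), a T antigen receptor chain (Cd3g), a T cell kinase (Lck) and a lymphotoxin gene (Ltb) lets the sequences be compared. Each line gives the 250 bases before the gene's outermost start in RefSeq on GRCm38.p6, 5′ to 3′ along the gene, from a window that no other RefSeq gene overlaps. Capitals mark matches on either strand to 6 motifs, namely AGGAAG (ETS factors), ATGCAAAT (the octamer), the palindromic EBF motif, TGTGGT (RUNX), CTTTGA (TCF/LEF) and CAGNTG (an E-box). None of the marked matches overlaps another.
Cd79a (chr7:24897247-24897496, plus strand): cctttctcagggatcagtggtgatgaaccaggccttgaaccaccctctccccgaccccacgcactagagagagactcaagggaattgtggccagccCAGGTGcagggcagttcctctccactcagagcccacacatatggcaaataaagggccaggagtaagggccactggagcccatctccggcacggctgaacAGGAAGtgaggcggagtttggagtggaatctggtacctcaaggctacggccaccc
Fcer2a (chr8:3694175-3694424, minus strand): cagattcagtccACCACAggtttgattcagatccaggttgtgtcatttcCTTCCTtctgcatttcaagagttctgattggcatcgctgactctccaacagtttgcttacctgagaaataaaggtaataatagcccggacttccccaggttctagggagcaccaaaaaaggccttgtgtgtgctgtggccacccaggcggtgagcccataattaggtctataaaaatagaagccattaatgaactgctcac
Cd3g (chr9:44980432-44980681, minus strand): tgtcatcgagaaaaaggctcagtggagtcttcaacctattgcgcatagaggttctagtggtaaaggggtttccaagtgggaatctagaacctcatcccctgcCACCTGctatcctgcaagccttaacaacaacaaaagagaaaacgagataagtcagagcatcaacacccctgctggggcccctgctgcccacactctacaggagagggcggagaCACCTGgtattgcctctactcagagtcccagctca
Lck (chr4:129573642-129573891, minus strand): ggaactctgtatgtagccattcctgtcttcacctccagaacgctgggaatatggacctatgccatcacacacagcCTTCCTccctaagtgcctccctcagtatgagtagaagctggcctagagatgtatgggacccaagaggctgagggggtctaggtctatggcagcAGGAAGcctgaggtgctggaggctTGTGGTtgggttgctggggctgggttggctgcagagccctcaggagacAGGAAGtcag
Ltb (chr17:35194257-35194506, plus strand): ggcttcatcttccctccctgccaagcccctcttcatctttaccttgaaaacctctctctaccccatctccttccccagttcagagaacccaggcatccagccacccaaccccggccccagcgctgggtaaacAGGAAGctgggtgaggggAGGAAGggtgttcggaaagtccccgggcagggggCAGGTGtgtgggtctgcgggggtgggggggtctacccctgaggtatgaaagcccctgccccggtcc

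The Lck window held 3 ETS matches and 1 RUNX match, and the Ltb window held 2 ETS matches and 1 E-box. The Cd79a window held 1 E-box and 1 ETS match, with the ETS match beginning 55 bases before the start. RefSeq windows were found for 25 of the 37 members. Without an entry were Cd2, Cd4, Cd6, Cd8b1, Cd28, Ccr7, Skap1, Ms4a1, Cd79b, Blk, Cxcr5 and Rac2. The ETS motif was in 13 of 24 windows of T members (54.2%) and 3 of 7 windows of B members (42.9%), against 29.5% of all 32851 windows. The E-box was in 15 of 24 (62.5%) and 4 of 7 (57.1%), against 44.8% of all windows. The EBF motif was in 1 of 7 B windows and 0 of 24 T windows, against 0.779% of all windows, and the octamer was in no member window, against 1.6%. RUNX matches were in 2 of 24 and 1 of 7 windows, against 14% of all. TCF/LEF matches were in 4 of 24 and 0 of 7, against 13.8% of all. Several windows belong to the same gene, and a match describes letters, not a bound site.

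The 8 B cell genes were high in 1 library of each genotype and low in the other libraries. Cd79a (chromosome 7, 24897497 to 24901858), a signalling chain of the B cell receptor, was at 0.260, 0.215 and 7.99 FPKM in WT replicates 1, 2 and 3. In Rarres2-/- replicates 4, 5 and 6 it was at 0.171, 0.113 and 5.23 FPKM. WT replicate 3 and Rarres2-/- replicate 6 were thus the high libraries, and the genotypes overlapped. Its partner Cd79b (chromosome 11, 106311341 to 106314562) was at 0.940, 0.918 and 6.75 FPKM in WT and at 0.877, 0.804 and 4.01 FPKM in Rarres2-/-. Cd79b stayed at 0.804 to 0.940 FPKM in the libraries where Cd79a was low, so the ratio of Cd79a to Cd79b ran from 0.141 to 0.277 there, and was 1.18 in WT replicate 3 and 1.30 in Rarres2-/- replicate 6.

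Ms4a1, which encodes the B cell surface protein CD20, was at 0.160, 0.0611 and 3.62 FPKM in WT and at 0.0319, 0.129 and 1.68 FPKM in Rarres2-/-. Fcer2a, the low-affinity IgE receptor CD23 of mature B cells, was at 0.0521, 0 and 2.20 FPKM in WT and at 0.0504, 0 and 0.950 FPKM in Rarres2-/-. Both genes repeated the order of Cd79a at its upper end, WT replicate 3 and then Rarres2-/- replicate 6. Cd22, an inhibitory co-receptor, was at 0.186, 0.0652 and 1.5 FPKM in WT and at 0.294, 0.0692 and 0.790 FPKM in Rarres2-/-. Pax5, the transcription factor that fixes B cell identity, was at 0.198, 0 and 0.996 FPKM in WT and at 0.0440, 0 and 0.604 FPKM in Rarres2-/-. The complement receptor gene Cr2, at 0.0184 to 0.553 FPKM, followed the same order at its upper end. Blk, a B cell kinase of the Src family, was the single B member higher in Rarres2-/- replicate 6 (0.715 FPKM) than in WT replicate 3 (0.466 FPKM), with the other libraries at 0 to 0.119 FPKM.

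The highest values of all 8 B genes were in WT replicate 3 and Rarres2-/- replicate 6, where 2.65% of the 11086 tested genes and 3.11% of the 16937 named genes above 0 had that order. WT replicate 3 exceeded WT replicate 2 by 7.35 to 59.3 times in the 5 B members above 0 in both, and WT replicate 1 by 3.92 to 42.2 times in 7. Rarres2-/- replicate 6 exceeded replicate 5 by 4.34 to 46.2 times in 6, and replicate 4 by 2.69 to 52.6 times in 8. Many of the low values were near 0, so the largest ratios may rest on very few fragments. In the same order, the median ratio over all tested genes was 0.99 and 1.01 between the WT libraries and 1.0 and 1.03 between the Rarres2-/- libraries. The summed FPKM of the 8 genes was 1.94, 1.29 and 24.1 in WT and 1.60, 1.21 and 14.3 in Rarres2-/-. Between members the Pearson correlation of log2(FPKM + 1) over the 6 libraries had a median of 0.97 over 28 pairs and was lowest at 0.75. The pairs share the same libraries, and 2 high libraries set most of this value.

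**Figure D1:**
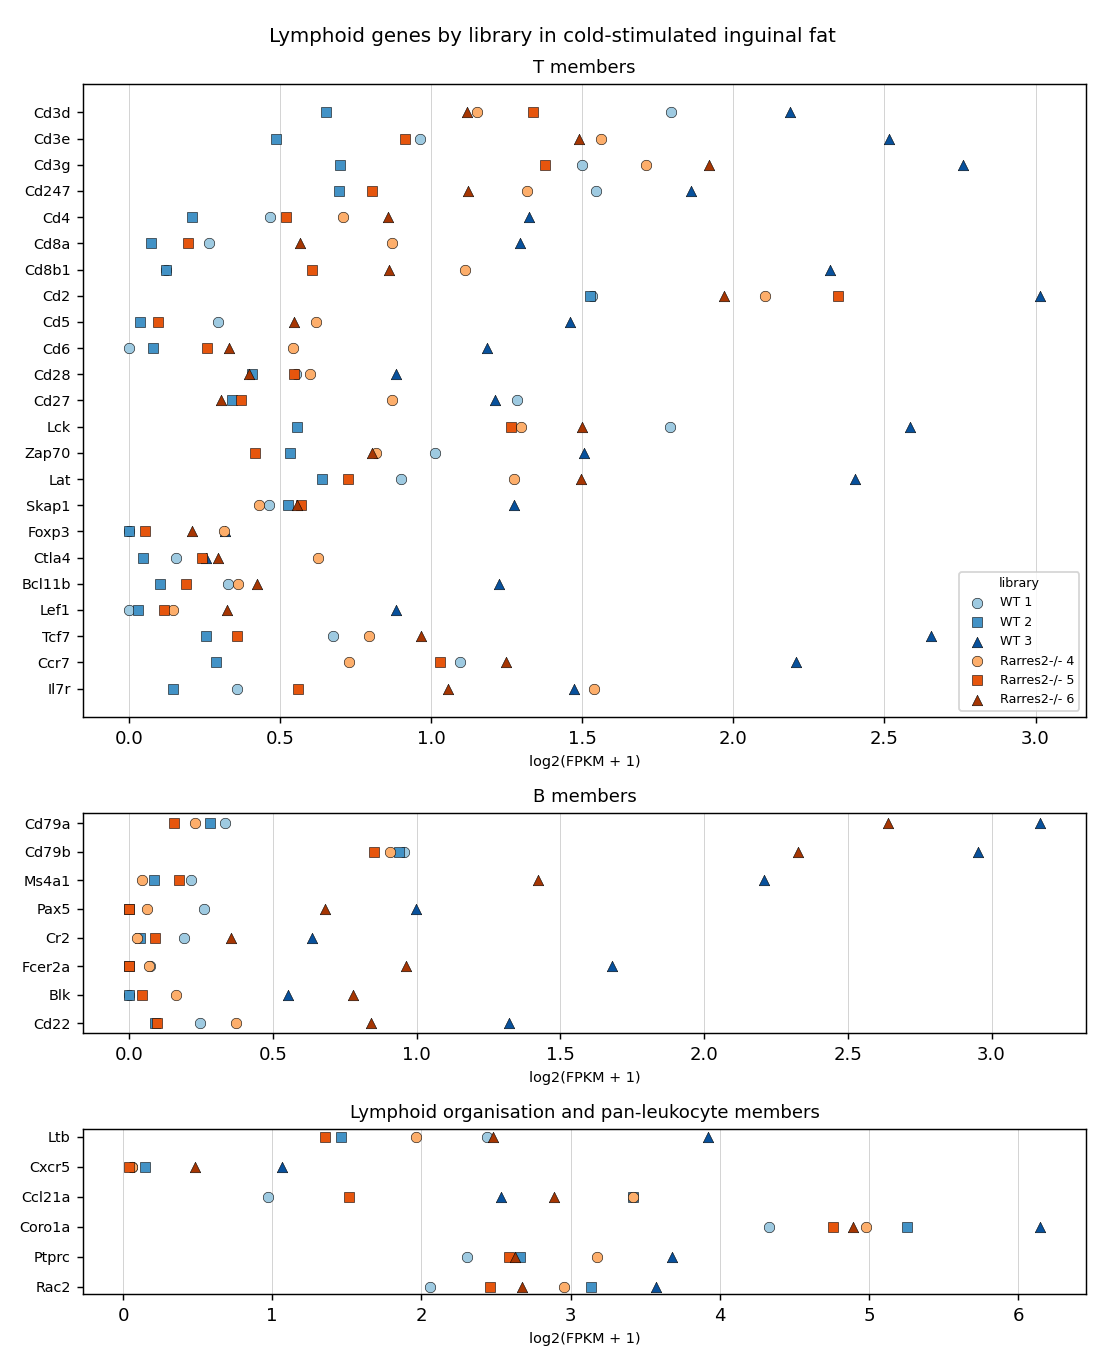
Level of each of the 37 members as log2(FPKM + 1) on the horizontal axis, with 1 point per library (blue for WT, orange for Rarres2-/-) and T, B and other members in separate panels. The triangles of WT 3 and Rarres2-/- 6 stand apart from the other libraries in every B gene, and WT 3 is the highest library in 20 of 23 T genes.

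B cell genes outside the 37 showed which of them shared this order. Of 31 other B cell pathway genes on a list, 26 had a row, and the constant-region genes of immunoglobulin were among those not analysed here. Fcmr, the IgM receptor, listed under its older symbol Faim3, was at 0.155, 0.0740 and 3.39 FPKM in WT and at 0.140, 0.0963 and 1.86 FPKM in Rarres2-/-. It was highest in WT replicate 3 and next in Rarres2-/- replicate 6. Pou2af1, the octamer coactivator of B cells, was at 1.23 FPKM in WT replicate 3, 1.18 FPKM in Rarres2-/- replicate 6 and at most 0.271 FPKM elsewhere. In all, 23 of the 26 were highest in WT replicate 3 and the other 3 in Rarres2-/- replicate 4, and 9 had WT replicate 3 and Rarres2-/- replicate 6 as their highest libraries. Genes that other cells also use are among those that did not share the high value in Rarres2-/- replicate 6. The kinase gene Syk was at 2.52, 8.16 and 10.2 FPKM in WT and at 8.18, 5.70 and 4.44 FPKM in Rarres2-/-, and Ebf1, which adipocytes and their progenitors also express, was at 21.4 to 29.6 FPKM in all libraries. Cd74, at 336 to 782 FPKM, was high in WT replicate 3 and Rarres2-/- replicate 4.

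The same order was then sought in all named genes. After the values were seen, genes were counted whose values in both WT replicate 3 and Rarres2-/- replicate 6 exceeded 2 times their highest value elsewhere. There were 57 among 16937 genes (0.337%) and 5 among 11086 tested genes (0.0451%). Of 13218 named genes averaging 0.2 FPKM or more, 24 were among the 57. These 24 held 7 of the 8 B members, Cxcr5, Lef1 and 6 of the other B cell genes. The rule was drawn from the pattern of the B members, so finding them by it adds no support. The 5 tested genes were Cd79a, Cd79b, Ly6d, the small nucleolar RNA gene Snora17 and the alpha globin gene Hba-a2. All but Hba-a2 were below 1 FPKM in every other library, so they passed the filter of the test through the high libraries. Ly6d, a surface protein of B lineage cells, was at 0.236, 0.554 and 5.72 FPKM in WT and at 0.875, 0.288 and 2.86 FPKM in Rarres2-/-. Hba-a2 was at 45.9, 78.9 and 178 FPKM in WT and at 62.3, 74.9 and 174 FPKM in Rarres2-/-. Its near-identical copy Hba-a1 ran from 402 to 828 FPKM and was highest in WT replicate 1, so how reads were shared between the copies is uncertain.

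Among tested genes outside the list, Ly6d followed the mean of the B members most closely over the 6 libraries (Pearson r = 0.97), and others close to it included Aldh16a1 (0.97), Cenpq (0.96), Dnalc4 (0.93), Snora17 (0.93), Grb2 (0.92), Pou2f2 (0.92), Zfp2 (0.92) and Hba-a2 (0.90). Pou2f2 encodes the octamer-binding factor OCT2. These correlations, each over 6 points, are given as a description.

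**Figure D2:**
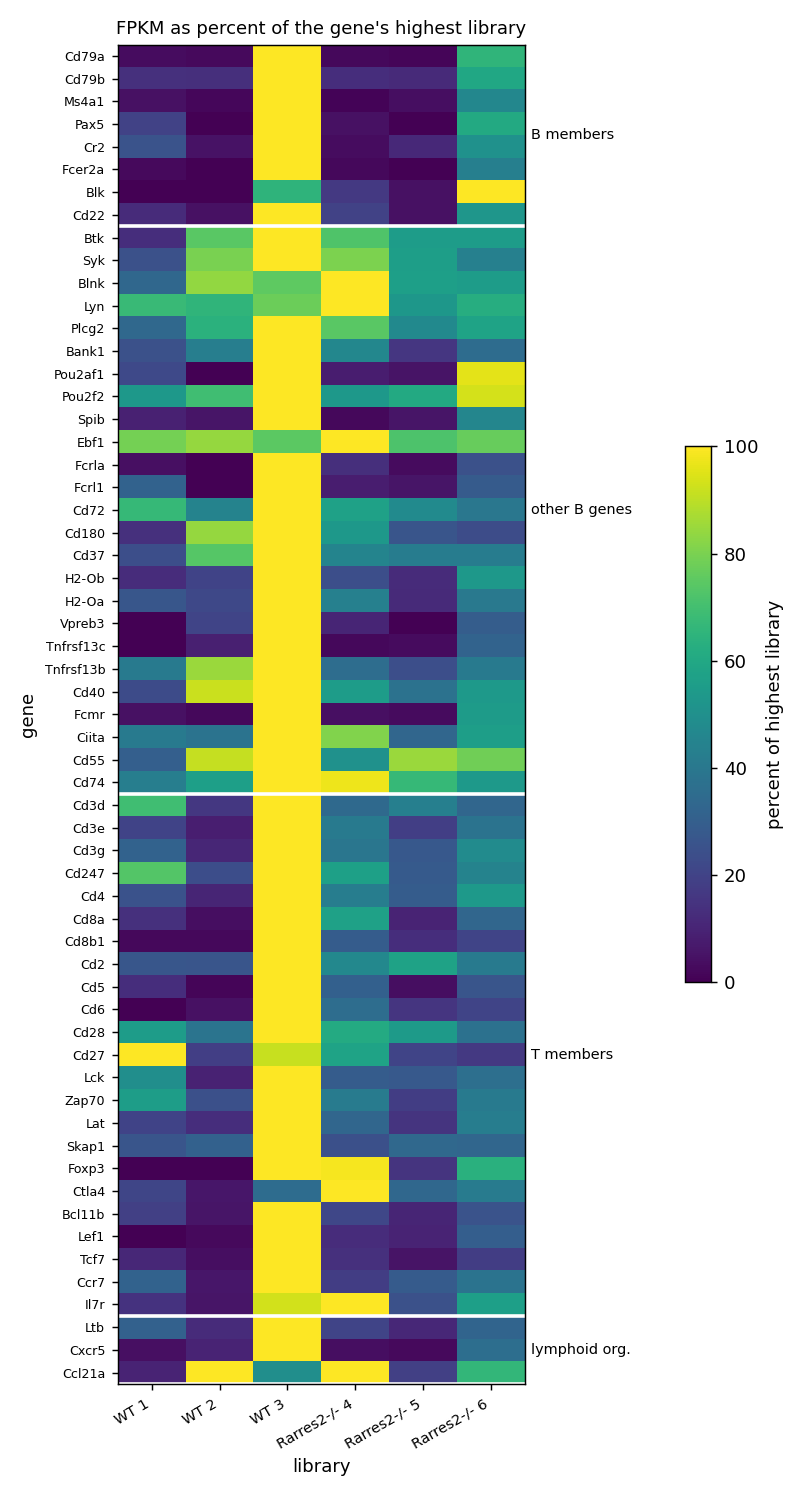
Each row is a gene and each column a library, and the colour gives FPKM as a percentage of that gene's highest library, for the B members, other B cell genes, the T members and the genes of lymphoid organisation. The rows of the 8 B members are brightest in WT 3 and Rarres2-/- 6. Of 23 T rows, 20 are brightest in WT 3, and 7 have WT 3 and Rarres2-/- 6 as their highest libraries. Several T rows are also bright in another library, such as Cd247 in WT 1.

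The T cell genes were highest in WT replicate 3 and mostly lowest in WT replicate 2, with the Rarres2-/- libraries in between. Of 23 T members, 20 were highest in WT replicate 3, where 10.6% of tested genes and 12.2% of named genes above 0 were. In WT replicate 2, 16 were lowest. Summed over the 23 genes, FPKM was 19.0, 7.62 and 61.7 in WT and 23.6, 16.1 and 22.5 in Rarres2-/-. The WT libraries thus spread more widely than the Rarres2-/- libraries. In bulk tissue, fewer cells of a type and less RNA per cell cannot be told apart.

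The chains of the T cell receptor complex come first. Cd3e was at 0.947, 0.40 and 4.72 FPKM in WT and at 1.95, 0.885 and 1.81 FPKM in Rarres2-/-. Cd3g was at 1.83, 0.621 and 5.78 FPKM in WT and at 2.27, 1.60 and 2.78 FPKM in Rarres2-/-. All Rarres2-/- values of both genes lay between the lowest and the highest WT library. Cd3d was at 2.47, 0.570 and 3.55 FPKM in WT and at 1.22, 1.53 and 1.17 FPKM in Rarres2-/-. Cd247, which also serves receptors of natural killer cells, was at 1.92, 0.617 and 2.63 FPKM in WT and at 1.49, 0.747 and 1.17 FPKM in Rarres2-/-. Cd3d and Cd247 stood high in WT replicate 1 as well, where Cd3e did not, so the ratio of Cd3e to Cd3d ran from 0.384 in that library to 1.60 in Rarres2-/- replicate 4. Cd3g, Cd3d and Cd3e lie side by side on chromosome 9, between 44969572 and 45009663.

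Co-receptors and co-stimulators were mostly below 1 FPKM. Cd4, the helper T cell co-receptor, was at 0.381, 0.156 and 1.5 FPKM in WT and at 0.635, 0.435 and 0.811 FPKM in Rarres2-/-. Cd8a, the co-receptor of cytotoxic T cells, was at 0.201, 0.0528 and 1.45 FPKM in WT and at 0.828, 0.144 and 0.481 FPKM in Rarres2-/-. Its partner Cd8b1 was at 0.0882, 0.0874 and 3.99 FPKM in WT and at 1.16, 0.522 and 0.815 FPKM in Rarres2-/-, so all Rarres2-/- libraries lay above WT replicates 1 and 2 and below WT replicate 3. The ratio of Cd8a to Cd4 was 0.528, 0.339 and 0.966 in WT and 1.30, 0.331 and 0.593 in Rarres2-/-, without a split by genotype. Cd2, an adhesion receptor, was the highest of this group at 1.88 to 7.08 FPKM. The scavenger-type receptors Cd5 (0.0263 to 1.75 FPKM) and Cd6 (0 to 1.27 FPKM) and the co-stimulator Cd28 (0.316 to 0.844 FPKM) were highest in WT replicate 3. Cd27, a co-stimulator that natural killer cells also carry, was at 1.43, 0.267 and 1.31 FPKM in WT and at 0.829, 0.294 and 0.236 FPKM in Rarres2-/-. It was the only T member highest in WT replicate 1.

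Signalling genes were highest in WT replicate 3. Lck, the kinase that starts the receptor's signal, was at 2.46, 0.470 and 5.0 FPKM in WT and at 1.46, 1.40 and 1.83 FPKM in Rarres2-/-. Lat, the membrane scaffold, was at 0.867, 0.556 and 4.29 FPKM in WT and at 1.42, 0.652 and 1.82 FPKM in Rarres2-/-. For both genes WT held the highest and the lowest library. The kinase gene Zap70 ran from 0.334 to 1.84 FPKM and the adaptor gene Skap1 from 0.349 to 1.42 FPKM, both highest in WT replicate 3.

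Transcription factors and the homing receptor of T cells also peaked in WT replicate 3. Tcf7, a transcription factor of naive and memory T cells, was at 0.595, 0.193 and 5.29 FPKM in WT and at 0.735, 0.282 and 0.955 FPKM in Rarres2-/-. Its relative Lef1 was at 0, 0.0215 and 0.843 FPKM in WT and at 0.107, 0.0827 and 0.252 FPKM in Rarres2-/-. Ccr7, the receptor for CCL21, was at 1.14, 0.222 and 3.62 FPKM in WT and at 0.658, 1.04 and 1.38 FPKM in Rarres2-/-. In each of these genes WT replicate 3 was highest and Rarres2-/- replicate 6 next. Bcl11b, which maintains T cell identity, was at 1.33 FPKM in WT replicate 3 and at 0.0742 to 0.342 FPKM elsewhere.

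Il7r and Ctla4 were highest in another library than most T members. Il7r, the interleukin 7 receptor of resting T cells and innate lymphoid cells, was at 0.281, 0.106 and 1.77 FPKM in WT and at 1.90, 0.473 and 1.08 FPKM in Rarres2-/-. Ctla4, an inhibitory receptor of regulatory and activated T cells, was at 0.114, 0.0325 and 0.192 FPKM in WT and at 0.544, 0.181 and 0.227 FPKM in Rarres2-/-. Foxp3, which defines regulatory T cells, was at 0, 0 and 0.247 FPKM in WT and at 0.243, 0.0370 and 0.157 FPKM in Rarres2-/-. Rarres2-/- replicate 4 held the highest values of Il7r and Ctla4, Foxp3 was highest in WT replicate 3, and for each of these 3 genes the groups overlapped.

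**Figure D3:**
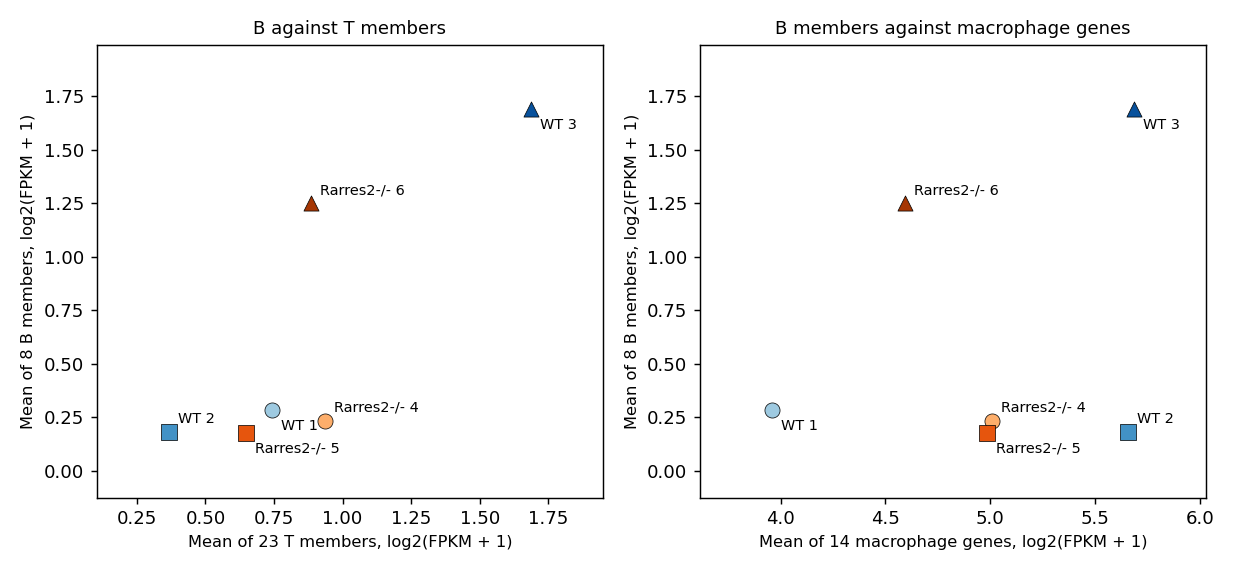
Each point is a library, with the mean log2(FPKM + 1) of the 8 B members on the vertical axis and that of the 23 T members (left) or 14 macrophage genes (right) on the horizontal axis. WT 3 (1.69 and 1.69 for B and T) and Rarres2-/- 6 (1.25 and 0.89) stand above the other libraries for B genes, and macrophage genes do not separate them.

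B and T genes did not vary in one fixed proportion. The ratio of Cd79a to Cd3e was 0.275, 0.538 and 1.69 in WT and 0.0875, 0.128 and 2.90 in Rarres2-/-. Rarres2-/- replicate 4 thus held Cd3e at 1.95 FPKM with Cd79a at 0.171 FPKM, while Rarres2-/- replicate 6 held Cd3e at 1.81 FPKM with Cd79a at 5.23 FPKM. The T members' mean log2 value was 0.93 in Rarres2-/- replicate 4 and 0.89 in replicate 6, whereas that of the B members was 0.23 and 1.25. Pearson correlations over the 6 libraries had a median of 0.82 over 253 pairs of T members and of 0.76 over 184 pairs of a T and a B member. These values are a description.

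T cell genes outside the 37 were mostly low. Of 25 on a list, 22 had a row, 9 averaged 1 FPKM or more, and 16 were highest in WT replicate 3. The most abundant were Thy1 (18.0 to 44.4 FPKM), Gimap6 (11.9 to 33.6), Fyn (6.47 to 22.8), Gimap4 (4.81 to 18.7), Nfatc1 (4.55 to 5.83) and Gimap3 (1.26 to 6.11). Cells other than T cells also use most of these genes. Among 16 genes of effector T cell classes, 3 were highest in WT replicate 3. Il17a was listed at 0 in all libraries. By limma, 0 of 9 tested genes of the T pathway list, 0 of 15 of the B pathway list and 0 of 3 of the effector list passed in either direction.

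Of 11 natural killer and innate lymphoid genes on a list, 5 were highest in WT replicate 1 and 2 were highest in WT replicate 3. Ncr1, a receptor of natural killer cells, was at 1.19, 0.337 and 0.461 FPKM in WT and at 0.631, 0.174 and 0.180 FPKM in Rarres2-/-, highest in the library where Cd27 was highest. Nkg7, a granule protein gene of cytotoxic cells, was at 7.44, 3.66 and 5.37 FPKM in WT and at 8.96, 4.05 and 6.05 FPKM in Rarres2-/-. Of 10 plasma cell and germinal centre genes with a row, 5 were highest in Rarres2-/- replicate 4, 3 in WT replicate 2 and 0 in WT replicate 3. Only 1 of the 10 had the high libraries of the B members as its highest. This was Jchain, listed as Igj, the joining chain of secreted immunoglobulin, at 0.552, 0.410 and 2.72 FPKM in WT and at 0.748, 1.59 and 2.89 FPKM in Rarres2-/-. Mki67, a marker of dividing cells, was at 0.316 to 0.662 FPKM.

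The lymphoid organisation genes divided. Ltb, a lymphotoxin subunit made by lymphocytes, was at 4.41, 1.75 and 14.1 FPKM in WT and at 2.90, 1.56 and 4.58 FPKM in Rarres2-/-. Cxcr5, the receptor for CXCL13 on B cells and follicular helper T cells, was at 0.0432, 0.107 and 1.09 FPKM in WT and at 0.0426, 0.0283 and 0.396 FPKM in Rarres2-/-. Both were highest in WT replicate 3 and next in Rarres2-/- replicate 6, as the B members except Blk were. For Ltb, however, Rarres2-/- replicate 6 lay close to WT replicate 1 (4.58 and 4.41 FPKM), so only WT replicate 3 stood apart. Ccl21a (chromosome 4, 42772860 to 42773991), the chemokine of lymph node stroma and lymphatic vessels, was at 0.957, 9.71 and 4.79 FPKM in WT and at 9.69, 1.86 and 6.41 FPKM in Rarres2-/-. It was highest in WT replicate 2, where 16 of 23 T genes were lowest, and in Rarres2-/- replicate 4. Its correlation with the 31 T and B members had a median of 0.09 and ran from -0.56 to 0.48. Ccl21a has near-identical copies, so its values are uncertain where reads could be split between them.

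Genes of lymph node vessels and stroma did not share 1 order. Glycam1 and Chst4, defining genes of the high endothelial venules of lymph nodes, were listed at 0 in all 6 libraries, and Madcam1 was at 0.0422 to 0.462 FPKM, highest in WT replicate 1. Fut7, an enzyme that builds selectin ligands in venules and in leukocytes, was at 0.152, 0.251 and 0.450 FPKM in WT and at 0.289, 0.0464 and 0.501 FPKM in Rarres2-/-, so its highest libraries were those of the B members. Of 17 genes on the list of lymph node stroma and venules, 15 had a row, 13 were above 0 in some library, 2 were highest in WT replicate 3, and 2, Fut7 and Tnfsf11, had WT replicate 3 and Rarres2-/- replicate 6 as their highest libraries. Cxcl13 was at 2.49, 13.5 and 21.4 FPKM in WT and at 5.74, 24.4 and 6.49 FPKM in Rarres2-/-, and was thus highest in Rarres2-/- replicate 5, where the B members summed to 1.21 FPKM. Ccl19, the other ligand of CCR7, was at 2.02, 2.63 and 4.81 FPKM in WT and at 5.73, 0.684 and 2.42 FPKM in Rarres2-/-. Summed over the list, WT libraries reached 198 to 338 FPKM, and Rarres2-/- libraries 229 to 277 FPKM. The largest parts were Cd34, Enpp2 and Ltbr, with means of 82.6, 79.2 and 38.3 FPKM over the 6 libraries. The sum is therefore no measure of the defining venule genes, Glycam1 and Chst4. Whether lymph node was part of any sample was not tested. Lymphatic vessel genes (7 on the list, Ccl21a among them, all with a row) summed to 13.3 to 96.6 FPKM among WT libraries, against 40.2 to 62.0 FPKM among Rarres2-/- libraries, and Prox1 was at 0.0524 to 0.104 FPKM.

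The genes carried by most leukocytes were also highest in WT replicate 3. Coro1a, an actin regulator of leukocytes, was at 19.1, 37.1 and 69.8 FPKM in WT and at 30.5, 26.1 and 28.7 FPKM in Rarres2-/-. Rac2, a GTPase of blood cells, was at 3.16, 7.78 and 10.9 FPKM in WT and at 6.77, 4.51 and 5.38 FPKM in Rarres2-/-. Ptprc, which encodes CD45, was at 3.95, 5.33 and 11.8 FPKM in WT and at 8.06, 5.02 and 5.18 FPKM in Rarres2-/-. All 3 were highest in WT replicate 3 and lowest in WT replicate 1, and the WT values enclosed all Rarres2-/- values. The 14 macrophage genes summed to 504 to 2097 FPKM in WT, lowest in WT replicate 1, and to 963 to 1241 FPKM in Rarres2-/-, with none at 0. In WT replicates 2 and 3 they summed to 2092 and 2097 FPKM, while the 23 T genes summed to 7.62 and 61.7 FPKM. The part of macrophages in the Coro1a, Rac2 and Ptprc values was not tested. Without WT replicate 1, the library lowest in these 3 genes, the log2 difference of Coro1a moved from -0.36 to -0.82, and that of Ccl21a from 0.30 to -0.37.

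Between genotypes, no lymphoid member passed the test. By limma on log2(FPKM + 1), 0 of 17 tested members had a Benjamini-Hochberg adjusted p under 0.05, as 0% of the 11086 tested genes did. Rarres2 was among the tested genes and did not pass either. A count of 0 therefore cannot show that the members were unchanged. At an unadjusted p under 0.05 there were 0 members, against 3.93% of tested genes (2.2% higher and 1.73% lower in Rarres2-/-). In 0 of 37 members did the genotypes fail to overlap, where 5.81% of tested genes were higher and 4.53% lower in all Rarres2-/- libraries. Of the 16937 named genes above 0, tested or not, 788 were higher and 712 lower in this way. Mean log2 values were lower in Rarres2-/- for 27 of 37 members, 15 of 23 T genes and 7 of 8 B genes, against 51.4% of tested genes and 53.7% of named genes above 0, by the mean of log2(FPKM + 1). By the mean FPKM, which the highest library weighs on more, 32 of 37 members and 20 of 23 T genes were lower. This compares with 50.8% of tested genes and 53.4% of named genes above 0.

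The median log2 difference (Rarres2-/- minus WT) was -0.17 over the 10 tested T members and -0.25 over the 2 tested B members, against -0.01 over all tested genes. Over all members with a row it was -0.11 for 23 T genes and -0.21 for 8 B genes. The median within-genotype SD of the log2 values was 0.73 for the tested T members and 1.27 for the 2 tested B members, against 0.25 for all tested genes. Both tested B members were below 1 FPKM outside WT replicate 3 and Rarres2-/- replicate 6, and Tcf7 was below it outside WT replicate 3. Cd8b1 and Ccr7 averaged below 1 FPKM over the libraries other than WT replicate 3. These genes passed the filter through the same libraries that raise their SD, so the SDs cannot be compared evenly.

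Cd79a had a log2 difference of -0.25 (SE 0.972, 95% interval -2.56 to 2.06, n = 3 each) with an adjusted p of 0.999 by limma. Cd3e had a log2 difference of 0.00 (SE 0.515, interval -1.22 to 1.22), and Cd8b1 one of 0.01 (SE 0.593, interval -1.40 to 1.41). Ltb had the most negative difference of the tested members, -0.67 (SE 0.613, interval -2.13 to 0.78). For Coro1a the WT mean was 42.0 ± 25.7 FPKM and the Rarres2-/- mean 28.4 ± 2.23 FPKM (SD over 3 libraries), and the log2 difference was -0.36 (SE 0.424). Intervals of this width leave room for changes of several-fold in either direction for Cd79a.

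The sign of the difference turned on single libraries. Without WT replicate 3, all 8 B genes and 19 of 23 T genes had higher mean log2 values in Rarres2-/-, with medians of 0.32 and 0.25. Without Rarres2-/- replicate 6, all 8 B genes had lower mean log2 values in Rarres2-/-, with a median of -0.47, and T genes had a median of -0.17. Without both libraries, a choice made after the values were seen, the medians were -0.05 for B genes, with 2 higher and 6 lower, and 0.19 for T genes, with 20 higher and 3 lower. Cd79a alone had differences of 0.70 without WT replicate 3 and -1.07 without Rarres2-/- replicate 6.

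Of 37 members, 8 kept the sign of their difference whichever single library was left out, and none of these were B genes. They were Cd3d (-0.79 to -0.02), Cd247 (-0.62 to -0.04), Cd27 (-0.73 to -0.26), Zap70 (-0.58 to -0.09) and Ltb (-1.25 to -0.02) with lower means, and Il7r (0.14 to 0.80), Ctla4 (0.12 to 0.31) and Foxp3 (0.03 to 0.19) with higher means in Rarres2-/-. None of the 8 had groups that did not overlap, and Cd27, Zap70, Il7r, Ctla4 and Foxp3 were below the level needed for the test. Without both WT replicate 1 and Rarres2-/- replicate 4, Foxp3 (-0.028) and Il7r (-0.0023) changed sign. Cd3d (0.022) did so without both WT replicate 3 and Rarres2-/- replicate 6. The share of all genes that keep their sign in this way was not computed.

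**Figure D4:**
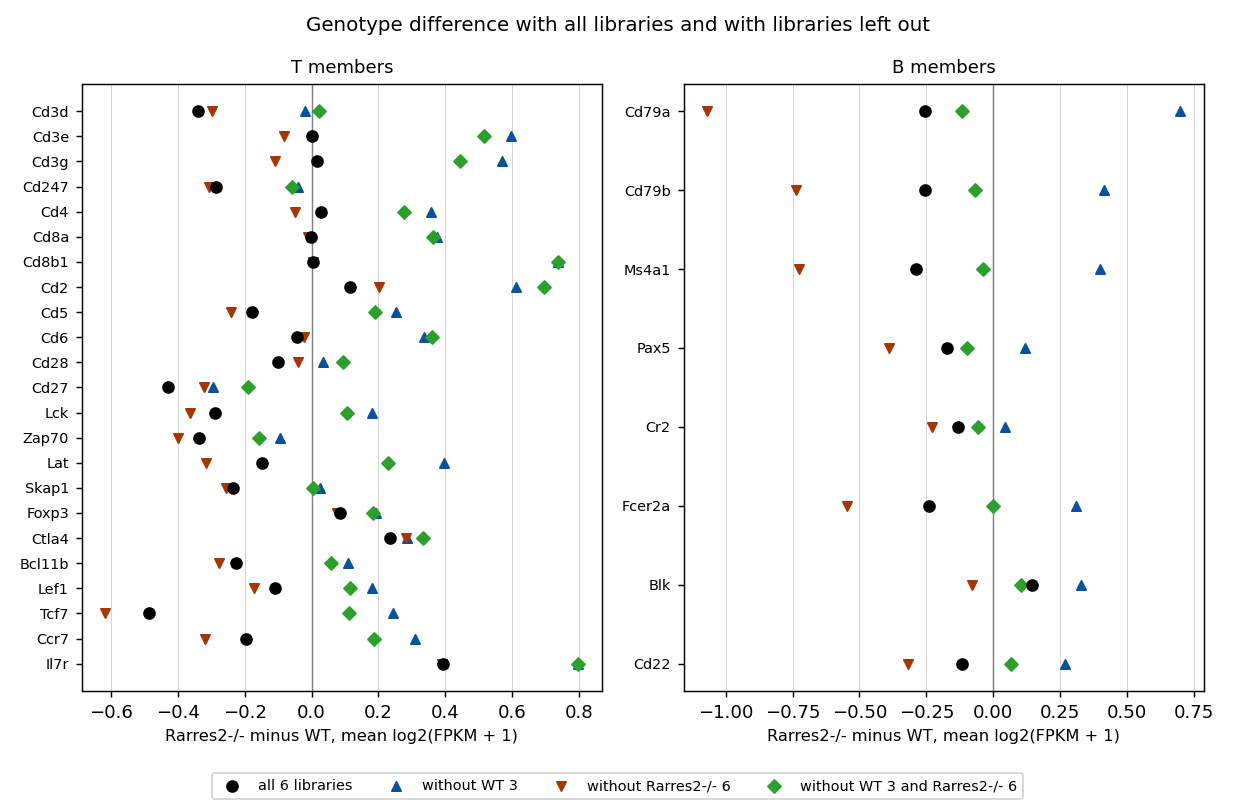
Difference in mean log2(FPKM + 1), Rarres2-/- minus WT, for each T member (left) and B member (right), with all 6 libraries and with WT 3, Rarres2-/- 6 or both left out. For the B genes the points without WT 3 all lie above 0 and those without Rarres2-/- 6 all lie below 0.

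Among tested genes outside the list, those most like the mean of the T members over the 6 libraries included Itgal (Pearson r = 0.98), Glipr1 (0.97), Spn (0.94), Acvr2a (0.93), Cd52 (0.93), Eya2 (0.93), Akna (0.93), Prdm4 (0.93) and Mcm6 (0.92). Itgal, an integrin chain of leukocytes, was at 0.917, 0.524 and 2.10 FPKM in WT and at 1.31, 0.709 and 0.957 FPKM in Rarres2-/-. Cd52, a surface protein of lymphocytes and other leukocytes, was at 41.4, 41.9 and 89.7 FPKM in WT and at 59.7, 38.1 and 52.5 FPKM in Rarres2-/-. Both shared the high value in WT replicate 3, and their groups overlapped. Several members overlap another annotated gene, among them Tcf7 with Skp1, Fcer2a with Trappc5, Cxcr5 with Bcl9l and Cd247 with Pou2f1. The sources used here do not state whether reads were counted by strand, so reads of such pairs may not be told apart.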

How the data were processed

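RNA-seq values of 6 libraries were read as the authors deposited them, in FPKM, 1 table for each library, as stated per the file headers. WT replicate 3's table is headed by the sample's name, and was read as FPKM because its gene rows and median (9.23 FPKM over tested genes, others 9.05 to 9.37) match the other tables. Per the submitters' processing notes, Bowtie and mm10 were used. The FPKM program, annotation and strand setting were not given in the sources used here. Rows without a symbol (737, 0.793% to 4.91% of summed FPKM) were left out.

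The 11086 genes averaging 1 FPKM or more entered the test as log2(FPKM + 1), which compresses changes at low levels, using limma 3.58.1 under R 4.3.3 (trend, two-sided, genotype as the only term, Benjamini-Hochberg adjusted p under 0.05). On simulated data for this comparison (11086 genes), 36% of the genes given a log2 change of 1 were recovered, and 74% of the genes given a log2 change of 2. The changed genes were drawn at random from all tested genes, with independent noise for each gene and library. The median within-genotype SD was 0.25 over all tested genes, 0.73 for tested T members and 1.27 for tested B members. These rates therefore do not give the recovery of members. No replicate block was fitted, as the genotypes have different numbers. The members and lists were chosen with earlier results of these data known. All members are named, and of each other list the counts and up to 6 genes of highest mean or defining role, some chosen after their values were seen, as well as the genes most like the T and B means (of the 10 highest each). Some genes are not reported here. Promoter windows and gene positions are from RefSeq on GRCm38.p6, the assembly that mm10 names. Alternatives were other scalings, filters, a pseudocount of 0.1, array weights and libraries left out, with the tested genes kept fixed except under the other filters.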

Additional observations from a re-analysis of the deposited data

How the results depend on the processing

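No paired analysis was possible because the genotypes share no replicate numbers. The count of members called was 0 under all alternatives except array weights. By limma with array weights, 1 of 17 members was called, Rac2 (-0.79, adjusted p = 0.0325), beside 1524 of all 11086 tested genes, with the cause not tested. Those weights were uneven, at 6.19 for Rarres2-/- replicate 5, 0.192 for WT replicate 1 and 0.179 for Rarres2-/- replicate 4. The count of genes called over all tested genes was 0 with all libraries and 1 with a filter of 5 FPKM in 3 libraries, 1 with scaling without the 20 most abundant genes, 1524 with array weights, 68 without both WT replicate 1 and Rarres2-/- replicate 4, and 2 without both WT replicate 3 and Rarres2-/- replicate 6. With 1 library left out it ran from 0 to 1. Each genotype kept at least 2 libraries in every such fit.

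With 1 library left out, the median log2 difference ran from -0.55 to 0.35 for tested T members and from -0.90 to 0.56 for tested B members, both positive without WT replicate 3. The B median was also positive without Rarres2-/- replicate 4 (0.054) and without Rarres2-/- replicate 5 (0.086), and was -0.96 with array weights. Log2 differences that changed sign ran from -0.42 to 0.60 for Cd3e, -0.46 to 0.57 for Cd3g, -0.36 to 0.74 for Cd8b1, -0.13 to 0.61 for Cd2, -0.83 to 0.18 for Lck, -0.49 to 0.40 for Lat, -0.96 to 0.24 for Tcf7, -0.65 to 0.31 for Ccr7, -1.07 to 0.70 for Cd79a, -0.74 to 0.41 for Cd79b, -0.37 to 0.86 for Ccl21a, -0.82 to 0.087 for Coro1a, -0.37 to 0.31 for Ptprc and -0.66 to 0.10 for Rac2. With array weights they were -0.39 for Cd3e, -0.17 for Cd3g, -0.42 for Cd8b1 and -1.24 for Ccl21a. With quantile normalization Cd3e was at -0.01 (-0.0066) and Cd8b1 at -0.069, and with upper-quartile scaling Cd3e was at -0.0056. Without both WT replicate 1 and Rarres2-/- replicate 4, Cd3e was at -0.30, Cd3g at -0.081, Cd8b1 at -0.49, Cd2 at -0.11 and Ccl21a at -0.77. Without both WT replicate 3 and Rarres2-/- replicate 6, a choice made after the values were seen, Cd3d was at 0.022, Lck at 0.11, Lat at 0.23, Tcf7 at 0.11, Ccr7 at 0.19, Coro1a at 0.079, Ptprc at 0.40 and Rac2 at 0.11.

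The filter of 5 FPKM in 3 libraries kept 4 members and no T or B gene, so no median could be given there. The gap in mean log2 value of the B members between WT replicates 3 and 2 was 1.51, and 1.48 to 1.53 under other scalings. It was 3.51 with a pseudocount of 0.1, as a smaller pseudocount widens differences at low values. Low depth in WT replicate 1 limits what its values near 0 can show.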
